A study of Homo sapiens with 12 samples.

Results

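RNF113A depletion was examined in untreated A549 cells, a human lung adenocarcinoma line, by sequencing the mRNA of 6 libraries out of the 12 in the series. There were 3 libraries of cells with a control shRNA (shControl) and 3 of cells with an shRNA against RNF113A (shRNF113A). All cells had been infected with lentivirus and selected with 1 µg/ml puromycin for 4 days, so each library comes from a selected pool of infected cells and not from a clone. The other 6 libraries carry the same shRNAs and were treated with 25 µg/ml Cisplatin, a DNA-crosslinking drug, for 20 h. The labels give this dose in µg/ml, whereas the paper states its Cisplatin doses in µM. These other 6 libraries enter the model only to share its estimate of the spread and are set beside the untreated cells at the end. The members of this comparison are all genes, splicing events and introns with enough reads in the deposited tables, and beyond those read limits no value was used to choose them. The labels name one shRNA against RNF113A and no rescue with an shRNA-resistant gene, so loss of RNF113A and any other action of that shRNA cannot be told apart. The methods call the replicates biological but, like the labels, do not say whether they were separate infections or cultures, so the p-values measure the spread between these libraries, which may be in part technical.

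RNF113A is a RING-type E3 ubiquitin ligase and a subunit of the spliceosome, the RNA and protein machine that removes introns from pre-mRNA. Its yeast counterpart Cwc24 joins the spliceosome as it is activated and sits at the 5′ splice site before the first catalytic step. Mutations of this X-linked gene cause a form of trichothiodystrophy, a disorder of hair, skin and nerve. When a splicing factor is limiting, introns can stay in mature transcripts, exons can be skipped, and transcripts with a premature stop codon can be removed by nonsense-mediated decay.

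The untreated libraries held 41490333 to 47795699 read pairs, of which 81.1 to 85.4% were counted on the strand of an annotated gene. Levels are given below as normalized counts, the read pairs of a gene divided by a size factor of its library, for replicates 1, 2 and 3 in this order. Control replicate 2 stood apart from the other libraries. In it 264 of 9682 genes, 2.73%, lay more than 2-fold from the mean of the other controls, against 49 and 48 genes in control replicates 1 and 3 and, measured alike, at most 7 in a depleted library. Its rank correlation across genes was 0.981 with control replicate 1 and 0.982 with control replicate 3, where every other pair of libraries of the same group reached 0.996 or more. Values without this library are given beside many of the results below. Of 11 markers of A549 cells, keratins 7, 8 and 18, ALDH1A1 and NQO1 were abundant in all 6 libraries. KRT19 was scarce, at 25 to 40.5 in control and 51.2 to 193 in depleted cells. So was MUC1, at 58.8 to 224 and 285 to 296. EPCAM was higher in depleted cells, and CDH1, AKR1B10 and AKR1C1 were lower, as given below. The 7 lung lineage markers summed to 88.2 to 129.5 in control and 193 to 293 in depleted cells. The defining T cell marker CD3E was at 0 throughout. The 7 blood markers summed to 196 to 241 in control and 160.5 to 190.1 in depleted cells, nearly all of it from CD14, at 100.3 to 158, and ITGAM, at 40.4 to 93.2, while the other 5 stayed below 10. The 4 endothelial markers summed to 2.03 to 22.2 in control and 12.5 to 31.3 in depleted cells. Fibroblast markers summed to 234 and 285 in control replicates 1 and 3, 1345 in control replicate 2 and 246 to 321 in depleted cells, and COL1A1 alone made up 1266 of the sum in control replicate 2. Their part in the results below was not tested. In bulk RNA, fewer cells that express a gene and less RNA per cell cannot be told apart.

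RNF113A itself, on chromosome X, was lower in RNF113A-depleted cells, by much less than 2-fold. Its normalized count was 743, 707 and 725 in control cells and 555, 572 and 612 in depleted cells, so the groups did not overlap. The log2 fold change was −0.31 (SE 0.092) with an adjusted p of 0.0247 in edgeR's quasi-likelihood test with Benjamini-Hochberg adjustment, the test behind every expression result here. The change kept its direction but missed the adjusted threshold of 0.05 when control replicate 1 or 3 or depleted replicate 1 or 2 was left out, with values from −0.31 to −0.28. The mRNA level does not show how much RNF113A protein was left. Genes of the machinery around RNF113A showed little change at the mRNA level. None of 38 tested proteins of the activated spliceosome changed 2-fold, and 1 rose and 1 fell at an adjusted p under 0.05 with no fold limit. PRPF8, the core protein of the spliceosome, had normalized counts of 24712, 23184 and 21761 in control and 25867, 26537 and 23424 in depleted cells. DHX16, the helicase that remodels the spliceosome as Cwc24 leaves it, had 2304, 1674 and 2190.5 against 2065, 2205 and 2074. SF3B2, a U2 snRNP protein that the study followed as protein, had 13499, 10293 and 12477 in control and 11964, 11849 and 12191 in depleted cells, and its log2 fold change had an adjusted p of 0.999 and its sign changed with the setting. The lists of 23 SF3A, SF3B and U2AF factors and of 22 SR proteins held no gene that changed 2-fold.

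Across the genome 1329 of 15352 tested genes, 8.66%, changed at an adjusted p under 0.05 and at least 2-fold. Of these 568 rose (3.7%) and 761 fell (4.96%). In 1315 of them the 3 control and 3 depleted libraries did not overlap, which held for 43.3% of all tested genes. Most changes were modest: 403 rises and 528 falls lay between 2- and 4-fold, 98 and 141 between 4- and 8-fold, and 67 and 92 at 8-fold or more. The median changed gene rose 2.94-fold or fell 3.03-fold, while the median log2 fold change of all tested genes was 0.0028. Without the fold limit 4207 genes, 27.4%, passed the adjusted p, 1971 higher and 2236 lower. Leaving out control replicate 2 gave 1425 changed genes, 9.16% of 15554 tested, of which 736 rose and 689 fell, and 1079 were shared with the 1329.

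**Figure D1:**
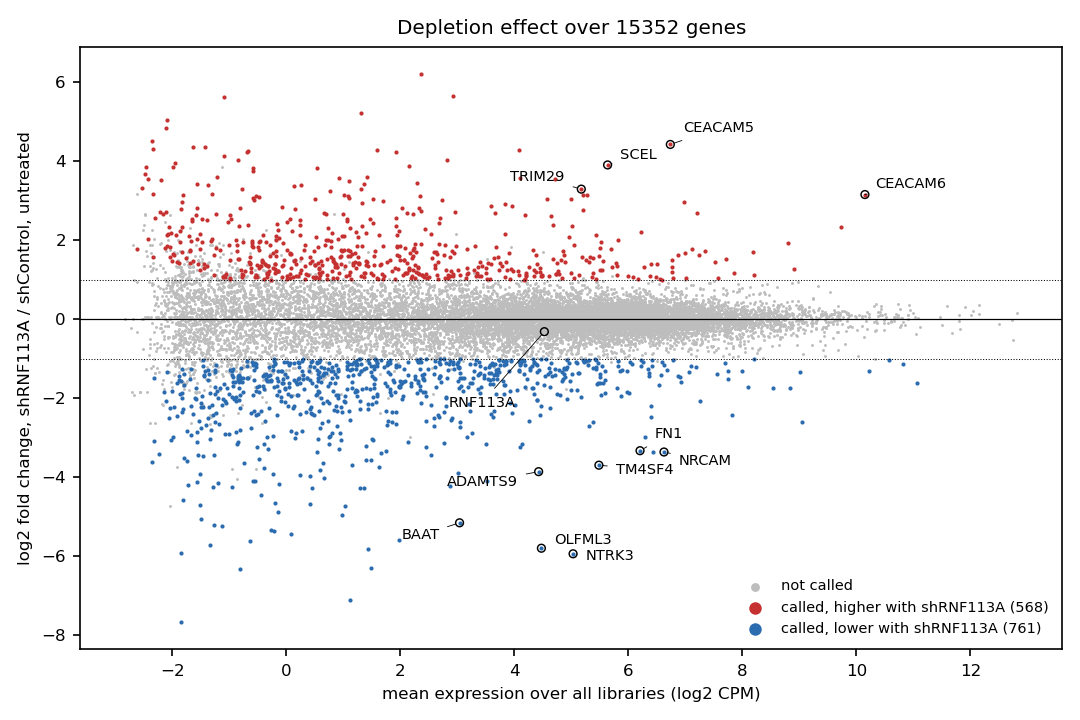
Change upon RNF113A depletion in untreated A549 cells (y axis, log2 fold change of depleted over control) against the mean level (x axis, log2 CPM, counts scaled to the size of the library) for 15352 tested genes. Grey points did not pass the test or changed less than 2-fold, red points are the 568 genes that rose and blue points the 761 that fell at least 2-fold, the labelled genes are among those named in the text, and RNF113A lies close to the line of no change.

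Among genes with a mean level of at least 10 CPM the largest rise was that of CEACAM5. CEACAM5, the carcinoembryonic antigen, a cell adhesion glycoprotein of epithelia and carcinomas, had normalized counts of 431, 825 and 210.3 in control cells and 8318, 10196 and 12949 in depleted cells. Its log2 fold change was 4.43 (SE 0.47, adjusted p 4.1e-05). The related CEACAM6 was already abundant in control cells at 10754, 12492 and 8674 and reached 87410.3, 88844 and 107178, a log2 fold change of 3.16. The 2 genes are close paralogs, and reads may be split between them. EPCAM, an epithelial cell adhesion molecule, had 257, 668 and 204 in control and 3102, 3388 and 3549 in depleted cells, and control replicate 2 held more of it than the other controls. Its log2 fold change was 3.16, and 3.87 without that library. SCEL, which encodes sciellin of the cornified envelope of stratified epithelia, went from 369.9, 155 and 280.1 to 3761, 3808 and 4416. TRIM29, a TRIM family protein of squamous epithelia, went from 144, 170.2 and 138 to 1302, 1553 and 1562. In all of these the lowest depleted library was above the highest control. Without control replicate 2 the value of CEACAM5 was 5.05.

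Another 6 of the 12 rises named by the rule had log2 fold changes between 2.76 and 3.14. The secreted hormone STC1 had 108, 717 and 106 in control and 2912, 2427 and 2362 in depleted cells. The netrin receptor UNC5D had 131, 788 and 155 in control and 3288, 2883 and 2764 in depleted cells. For both of them control replicate 2 was the highest control, and the log2 fold change moved from 3.05 to 4.60 for STC1 and from 3.06 to 4.39 for UNC5D when it was left out. MAL2, a protein of apical transport in polarized cells, went from 104, 204 and 75.6 to 948, 1046 and 799.7. FGFBP1, a carrier of fibroblast growth factors, went from 166, 184 and 147 to 1119, 1192 and 1437. CPA4, a carboxypeptidase, went from 178, 43.5 and 169.6 to 1020.4, 1180.4 and 1207, with control replicate 2 the lowest library. UNC13A, a protein that primes vesicles for release, had 348, 749 and 381 in control and 3598, 3605 and 2759 in depleted cells.

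The largest fall at that level was that of NTRK3, the receptor tyrosine kinase for neurotrophin-3. It had normalized counts of 4186, 5395 and 3701 in control cells and 99, 67.4 and 47 in depleted cells, a log2 fold change of −5.94 (SE 0.24, adjusted p 4.1e-08). OLFML3, a secreted matrix protein, had 3422, 496 and 3551 and 81.7, 34.2 and 14.5. Control replicate 2 held far less OLFML3 than the other controls and still more than any depleted library. BAAT, which joins amino acids to bile acids, fell from 1037, 446 and 1000.3 to 15.4, 20.9 and 33.5. FN1, fibronectin of the extracellular matrix, fell from 6623, 8335 and 4781 to 728, 676 and 549.1. NRCAM, a neuronal cell adhesion molecule, fell from 14493, 3389.8 and 11538 to 977, 838 and 1027, again with control replicate 2 between the other controls and the depleted libraries. The protease ADAMTS9 fell from 2135, 3110.3 and 1753 to 271, 152 and 52.6. Depleted libraries were the lower group in each of these without overlap. Without depleted replicate 1 the log2 fold change of OLFML3 moved from −5.80 to −6.62 and that of ADAMTS9 from −3.86 to −4.48.

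The remaining falls named by the rule had log2 fold changes between −3.90 and −3.16. The tetraspan protein TM4SF4 fell from 4603, 2575 and 3214 to 195, 270.4 and 333. The amino acid transporter subunit SLC7A7 fell from 7682, 6854 and 6477 to 681, 790.4 and 565. NPNT, the integrin ligand nephronectin, fell from 962, 1917 and 1069 to 135, 139 and 141. NPY1R, a receptor of neuropeptide Y, fell from 731, 2714 and 724 to 168, 214 and 78.3, and its log2 fold change of −3.16 became −2.22 without control replicate 2, its highest control. TMEM37 fell from 774, 1214 and 621 to 48, 65.5 and 60.4, and FAM167A from 727, 906 and 532 to 57.6, 79.7 and 105.

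**Figure D2:**
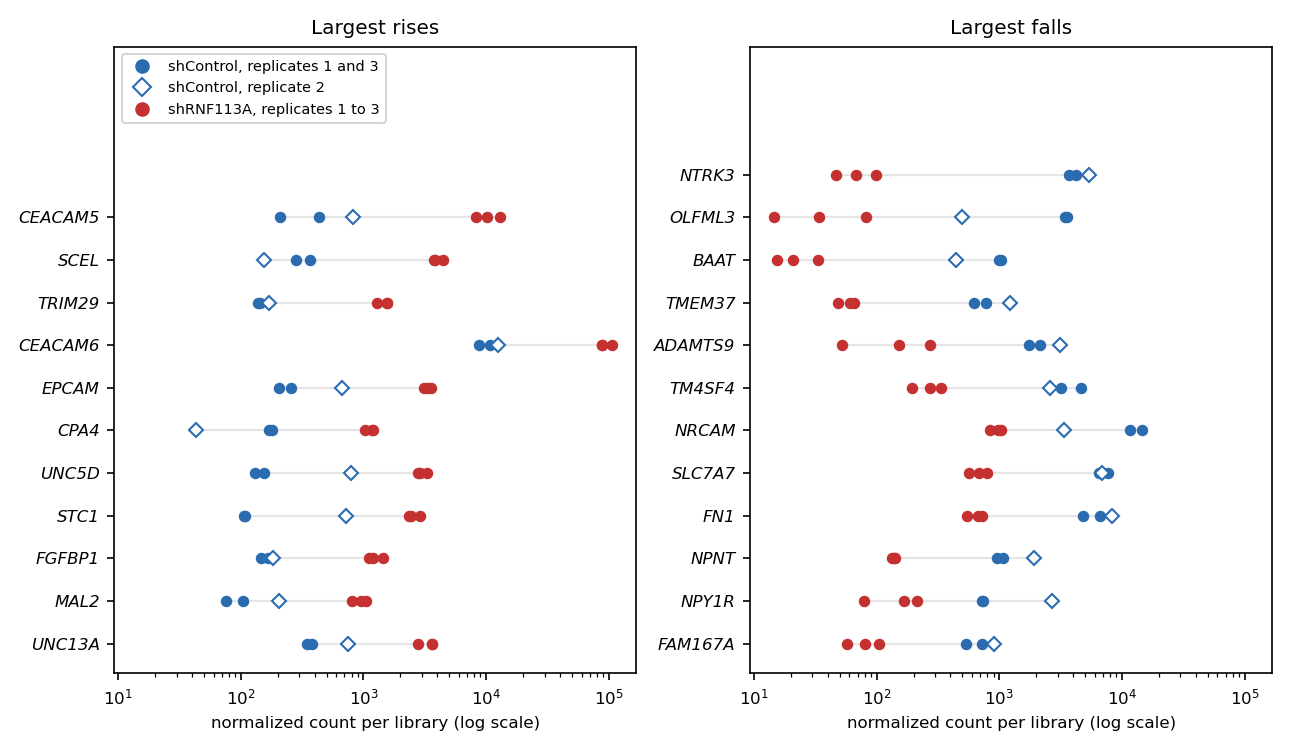
Normalized counts per library on a log axis for 11 of the 12 largest rises (left) and the 12 largest falls (right) of the genes that changed, with groups that did not overlap and a mean level of 10 CPM or more. Blue points are control replicates 1 and 3, open diamonds control replicate 2 and red points the 3 depleted libraries. The diamond lies away from the other controls for OLFML3, STC1, UNC5D, CPA4, NPY1R, NRCAM and EPCAM, among others.

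Genes were also read in 35 lists of pathways, complexes and markers. Of the list members tested, a list is described by how many changed at least 2-fold and by its median log2 fold change, to be read against 8.66% and 0.0028 over all tested genes. At most 2 rises and 2 falls per list were named by a rule, and other members are given for their role and were chosen with their values known. Splicing factors, the genome maintenance machinery and the housekeeping complexes held almost no changed genes. Matrix (61.8%), CEACAM and mucin (58.8%) and squamous (56.5%) genes held the largest shares, followed by keratins and lung adenocarcinoma markers (7 of 14 in each), ADAMTS proteases (41.7%) and epithelial genes (41.4%).

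Epithelial genes rose more often than they fell, with 11 rises and 1 fall among 29 tested, 41.4%, and a median log2 fold change of 0.77. Besides EPCAM and MAL2 the rises included ESRP1, a splicing regulator of epithelial isoforms, at 25.3, 77.7 and 20.4 in control and 240.2, 248 and 151 in depleted cells, with a log2 fold change of 2.37, and of 3.23 without control replicate 2. OVOL2, a repressor of mesenchymal genes, rose from 22.3, 30.5 and 25.2 to 140.3, 144 and 149.9. LSR, a protein of tricellular junctions, rose from 1555, 2264 and 1801 to 4238, 5207 and 4559.8. OVOL1, a relative of OVOL2, was at 0 in all controls and at 0.96, 2.85 and 1.12 in depleted cells, too few reads for a fold, and lost its call when any 1 library was left out. The fall was CLDN2, a claudin that forms cation pores in tight junctions, from 3872, 4997 and 2988 to 649, 539 and 609.5. E-cadherin did not follow the rises, since CDH1 had 5606, 7162 and 5014 in control and 4308, 4647 and 3314 in depleted cells, a log2 fold change of −0.53 with an adjusted p of 0.0414, and of −0.36 with an adjusted p of 0.115 without control replicate 2. Keratins 7, 8 and 18, the simple epithelial keratins that dominate A549 cells, did not pass the test. KRT8 had 242112, 129449 and 232089.6 in control and 241252, 269268 and 253313 in depleted cells, and only control replicate 2 was low.

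Squamous and barrier genes showed 12 rises and 1 fall among 23 tested, 56.5%, with a median of 1.43. They included TP63, the master transcription factor of squamous and basal cells, at 54.7, 27.8 and 42.6 in control and 140.3, 143 and 157 in depleted cells. TGM2, a transglutaminase that crosslinks proteins, rose from 8586, 14355 and 11039.7 to 58569, 53026 and 59804. S100P, a calcium-binding protein, rose from 231, 277 and 275 to 779, 867 and 868. SERPINB5, the serpin known as maspin, had 0, 12 and 0.97 in control cells, so hardly any reads in 2 of them, and 219, 175 and 303 in depleted cells. SOX2, a transcription factor of progenitor cells, fell from 162, 432 and 234 to 74, 113 and 86.1. Among keratins 6 rose and 1 fell of 14 tested, and 4 rose and 1 fell of 15 without control replicate 2. KRT15, a basal-layer keratin, rose from 42.6, 36.1 and 39.7 to 264, 385 and 303, and KRT6A, which has close paralogs, rose from 15.2, 11.1 and 2.91 to 106, 126 and 201. KRT17, a keratin of activated keratinocytes, had 0, 6.48 and 1.94 in control and 17.3, 30.4 and 28 in depleted cells. The keratin that fell was KRT4, from 1004, 389 and 1116 to 184, 309 and 172. The CEACAM and mucin list held 10 rises and no fall among 17 tested, 58.8%, and 12 rises without control replicate 2. MUC5B, a secreted airway mucin, had 1955, 6214 and 3003 in control and 9623, 14716 and 9974 in depleted cells. MUC16, a membrane mucin, had 28.4, 124 and 54.3 and 517, 536 and 329. The trefoil factor TFF1 had 6.08, 29.6 and 9.69 and 80.7, 114 and 161. AGR3, a disulfide isomerase of secretory cells, had 0, 12.9 and 0.97 and 70.1, 56.9 and 71.6. Control replicate 2 was the highest control for these 4 genes. Without it the log2 fold change moved from 1.63 to 2.22 for MUC5B, from 2.74 to 3.48 for MUC16 and from 2.95 to 3.89 for TFF1. That of KRT17 moved from 3.08 to 4.51, and SERPINB5 and AGR3 had almost no reads in the other controls.

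Genes of the extracellular matrix changed in both directions, with 14 rises and 7 falls among 34 tested, 61.8%. Related chains moved apart. The rises took in LAMB3, the beta chain of laminin-332 in the basement membrane, from 897, 677 and 768 to 4862, 5863 and 4401, and COL17A1, a hemidesmosomal collagen, from 51.7, 44.4 and 35.9 to 471, 566 and 508. COL4A6, a basement membrane collagen chain, rose from 71, 93.4 and 79.5 to 335, 278 and 457, whereas the most abundant chains of that collagen fell. COL4A1 fell from 6399, 11556 and 6571 to 3456, 2958 and 1756, and COL4A2 from 12582, 19525 and 12814 to 6634, 6461 and 3902. NID2, a basement membrane linker, rose from 194, 541 and 167 to 1686, 1893 and 1925, by 2.61 on the log2 scale and by 3.36 without control replicate 2, while its relative NID1 fell from 78, 264 and 74.6 to 43.2, 34.2 and 30.2, a log2 fold change of −1.94 that became −1.07 without it. LAMA4, a laminin chain of vessel walls, rose from 4.05, 3.7 and 1.94 to 73, 58.8 and 57. VCAN, the proteoglycan versican, fell from 13135, 23808 and 12522 to 3339.7, 3541 and 2355. COL1A1 passed the test with 215, 1266 and 259 in control and 205, 203 and 121 in depleted cells, but its log2 fold change of −1.71 became −0.41 with an adjusted p of 0.336 without control replicate 2, where it was high. Mesenchymal genes split as well, into 3 rises and 7 falls among 28 tested. CDH2, N-cadherin, fell from 535, 589 and 705 to 98, 87.3 and 139, while CDH11, another mesenchymal cadherin, rose from 41.5, 99 and 50.4 to 645, 581 and 429. TNC, the matrix glycoprotein tenascin-C, rose from 35.5, 20.4 and 51.4 to 118, 143 and 167. ZEB2, a relative of ZEB1, fell from 30.4, 14.8 and 33 to 4.8, 3.8 and 1.12. Vimentin fell close to the 2-fold limit, with VIM at 41338, 25004 and 40241 in control and 19575, 17354 and 18315 in depleted cells, a log2 fold change of −0.94 that became −1.13, past the limit, without control replicate 2, its lowest control. ZEB1, a repressor of epithelial genes, fell from 1033, 800.2 and 959.5 to 663, 544 and 518, a log2 fold change of −0.68 with an adjusted p of 0.00129. Of 12 tested ADAMTS proteases 4 fell and 1 rose, the rise being ADAMTS1 from 5.07, 12 and 7.75 to 78.8, 80.7 and 87.2. Beside ADAMTS9 the falls included ADAMTS12, from 156, 115 and 133 to 43.2, 38 and 43.6. The list of fibroblast, endothelial and blood markers gave, beside COL1A1, 2 rises at low counts, COL3A1 from 1.01, 3.7 and 2.91 to 15.4, 19 and 15.7 and LUM from 6.08, 32.4 and 12.6 to 58.6, 84.5 and 98.4, and without control replicate 2 the log2 fold change of LUM was 3.09.

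Receptors and ligands were the next group. Neurotrophin and GDNF family genes showed 4 falls and no rise among 12 tested, and 2 falls and 1 rise without control replicate 2. Beside NTRK3 the GDNF co-receptor GFRA1 fell from 830.1, 424 and 905 to 121, 93.9 and 74.9, whereas RET, the kinase it works with, had 31.4, 54.6 and 27.1 in control and 31.7, 46.5 and 36.9 in depleted cells and did not pass the test (adjusted p 0.947). GFRA2 had 21.3, 83.3 and 18.4 in control and 1.92, 7.59 and 1.12 in depleted cells, and lost its call without control replicate 2 (−2.39, adjusted p 0.067) or without depleted replicate 1 or 3. Ligands of the EGFR family moved both ways, with 3 rises and 2 falls among 14 tested genes, and 5 rises and 2 falls without control replicate 2. AREG and HBEGF, which bind EGFR, rose from 32.4, 35.2 and 73.7 to 118, 116 and 129.7 and from 119, 142 and 144 to 281, 266 and 287. NRG4, a ligand of ERBB4, rose from 154, 231 and 182 to 645, 623 and 556. NRG1, a ligand of ERBB3 and ERBB4, fell from 2828, 1091 and 3216 to 1009.8, 862 and 967, with control replicate 2 close to the depleted libraries, with a call that was lost without depleted replicate 2 (NRG1 log2 fold change −1.26), and NRG2 fell from 157, 202 and 144 to 47.1, 52.2 and 32.4. MAPK feedback and immediate early genes held 5 rises and no fall among 31 tested, with a median of 0.38. The immediate early factor FOS rose from 489, 211 and 474 to 2547, 1299 and 2178, FOSB from 19.3, 9.25 and 31 to 488, 229.6 and 448, and DUSP6, a phosphatase of ERK, from 345, 399 and 346 to 1055, 965 and 959.6. EGR1 lost its call when any 1 library was left out.

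BMP and TGF-beta genes gave 2 rises and 3 falls among 34 tested, and 6 rises and 3 falls without control replicate 2. INHBB, an activin subunit, fell from 5979, 1194 and 5033 to 557, 738 and 703 and BMP7 from 696, 767 and 689 to 308, 278 and 129. NOG, the BMP antagonist noggin, rose from 15.2, 37 and 17.4 to 70.1, 60.7 and 57, and GREM1, another, from 20.3, 5.55 and 11.6 to 37.5, 31.3 and 67.1. WNT pathway genes gave 3 rises and 6 falls among 32 tested. AXIN2 and ZNRF3, feedback inhibitors that WNT signalling switches on, fell from 1183, 929.8 and 1063 to 559, 530.4 and 451 and from 2829, 3465 and 2637 to 1346, 1304 and 1148. WNT5A, a ligand of the branch without beta-catenin, fell from 302, 463 and 369 to 145, 135 and 67.1, and its call was lost without depleted replicate 2 (WNT5A log2 fold change −1.82) or 3 (−1.42). NKD1, another feedback inhibitor, fell from 391, 1065 and 309 to 197, 204 and 182, with a log2 fold change of −1.59 that became −0.83 without control replicate 2. The ligand WNT7A had 0, 0 and 0.97 in control and 19.2, 19 and 28 in depleted cells, and WNT9A 31.4, 25.9 and 29.1 and 64.4, 92 and 54.8. SFRP1, a secreted WNT antagonist, rose from 1215, 1885 and 1156 to 3262, 3060.1 and 3233. Of 24 YAP and TEAD targets only FOXF2 changed 2-fold, from 489, 731 and 584 to 224, 209 and 200.2, and without control replicate 2 there were 1 rise and 2 falls.

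Stress, repair and cell cycle genes changed little in untreated cells. None of 30 p53 targets changed 2-fold, although 7 passed the adjusted p of 0.05 upwards and 4 downwards. Over all tested genes 12.8% were higher and 14.6% lower at that threshold, the shares to set beside such counts in this paragraph. CDKN1A, the cell cycle inhibitor p21, had 3358, 2562 and 4578 in control and 4439.8, 4439.8 and 4322 in depleted cells, with an adjusted p of 0.124. Of 64 tested DNA repair genes none changed 2-fold, 6 were higher and 5 lower. RNF8, a ubiquitin ligase of the double-strand break response, had 1004, 878 and 1067 in control and 886, 819.8 and 918 in depleted cells (adjusted p 0.224). None of the 40 replication and 40 mitosis genes changed 2-fold, and 9 mitosis genes were lower and none higher at an adjusted p under 0.05. The median log2 fold change of the mitosis list was −0.19, and −0.28 without control replicate 2. Among 40 apoptosis genes BIK, a BH3-only protein, rose from 16.2, 14.8 and 23.3 to 46.1, 58.8 and 73.8. BCL2L11, the BH3-only protein BIM, fell from 1056, 1146 and 953 to 446, 463 and 416, and BCL2A1, an anti-apoptotic relative of BCL2, fell from 22.3, 24.1 and 16.5 to 4.8, 4.74 and 3.36. NUPR1, a stress-induced chromatin protein that the study followed, fell from 433, 499.6 and 490.4 to 177, 156 and 191, a log2 fold change of −1.43 (SE 0.10, adjusted p 2.0e-06), and it was the only ATF4 or endoplasmic reticulum stress gene of 35 to change 2-fold. SAT1, which acetylates spermidine and spermine, had 6404, 10384 and 6278 in control and 6713, 5979 and 6036 in depleted cells (adjusted p 0.325). NOXA1, an activator of an NADPH oxidase, had 142, 167 and 137 and 184, 192 and 147 (adjusted p 0.245).

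In the inflammatory lists OAS1, an interferon-induced sensor of double-stranded RNA, rose from 2952, 2289.7 and 2773 to 8568, 8596 and 10294, while 2 other interferon-stimulated genes of 34 tested fell. Without control replicate 2 this list had 3 rises and 1 fall. IFIT1, which binds foreign RNA, fell from 221, 334 and 210.3 to 84.5, 77.8 and 129.7. Of 28 tested chemokine, cytokine and NF-kB genes 3 rose and 1 fell, and 2 rose and 1 fell of 29 without control replicate 2. The chemokine CCL20 rose from 4.05, 2.78 and 3.88 to 29.8, 21.8 and 41.4, at low counts, and the adhesion receptor ICAM1 from 4.05, 1.85 and 7.75 to 19.2, 19.9 and 14.5. CX3CL1, a membrane-bound chemokine, fell from 87.2, 163 and 101 to 42.3, 33.2 and 5.59, and its call was lost without depleted replicate 2 (CX3CL1 log2 fold change −2.24) or 3 (−1.62). Among 22 senescence-associated genes 4 rose and 1 fell, with PLAUR, the urokinase receptor, from 939.5, 944 and 945 to 3124, 3136 and 3353 and urokinase itself, PLAU, from 2519, 1168 and 2900.0 to 6679, 6682 and 7604.

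Metabolic genes with large changes were few, and 2 groups of enzymes stood out by level. AKR1C1 and AKR1B10, aldo-keto reductases under the transcription factor NRF2, are abundant in A549 cells. AKR1C1 fell from 20621, 18334 and 17447 to 5343, 5588 and 6116, and AKR1B10 from 175385, 64796 and 144229 to 36711, 39503 and 47404, with control replicate 2 near the depleted libraries. AKR1C1 and its paralog AKR1C2 may share reads. In the list of 39 NRF2 targets and related enzymes 1 gene rose and 3 fell 2-fold (1 and 7 without control replicate 2). At an adjusted p under 0.05 19 were lower and 2 higher, against 14.6% and 12.8% of all tested genes. NQO1, the classical NRF2 target, had 80329, 80038 and 75232 in control and 75543, 71467 and 76228 in depleted cells (adjusted p 0.555). ALDH1A3, which makes retinoic acid, rose from 1242, 958 and 1182 to 2570.1, 3058 and 2729. The carbonic anhydrases fell, CA12 from 49646, 42204 and 42245 to 7232, 7644 and 6915 and CA9 from 71, 405 and 70.8 to 19.2, 23.7 and 22.4, the latter with a high control replicate 2 and a log2 fold change of −3.06 that became −1.68 without it. SLC16A3, a lactate exporter, rose from 131, 332 and 139 to 541, 711 and 523, and HK2, a hexokinase, from 61.8, 43.5 and 51.4 to 129.7, 123 and 145, a call that was lost with counts of both strands (HK2 log2 fold change 0.89). None of 72 ribosomal protein genes, 57 respiratory chain genes, 38 proteasome genes or 32 lipid synthesis genes changed 2-fold, and without control replicate 2 only 1 lipid synthesis gene did, upwards. HNF4A, a transcription factor of hepatocyte and gut genes that was on no list, was singled out after its values were seen. It fell from 1711, 1549 and 1345 to 216, 268 and 281. NKX2-1, the transcription factor of lung lineage, was low in control cells at 14.2, 14.8 and 9.69 and fell to 2.88, 4.74 and 2.24, while the lung collectin SFTPD rose from 9.12, 34.2 and 18.4 to 157, 166 and 81.7, with a log2 fold change of 2.70, and of 3.29 without control replicate 2.

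Among 28 hnRNP genes PTBP3 was the one that changed 2-fold. PTBP3 is a paralog of the splicing repressor PTBP1. It had 7926, 9471 and 7209 in control cells and 1960.0, 1868 and 2042 in depleted cells, a log2 fold change of −2.06 (SE 0.093, adjusted p 7.6e-08). PTBP1 moved the other way by less than 2-fold, from 16158, 13878 and 16025 to 18739, 20781 and 18147, with an adjusted p of 0.00824. PTBP2, the neuronal paralog, had 521, 540.3 and 517 and 454, 423 and 442 and did not pass the test (adjusted p 0.102). Of 18 nonsense-mediated decay factors none changed 2-fold, and UPF1, its central helicase, rose from 2758, 2110.3 and 2700.3 to 3467, 4010.0 and 3343, a log2 fold change of 0.53.

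**Figure D3:**
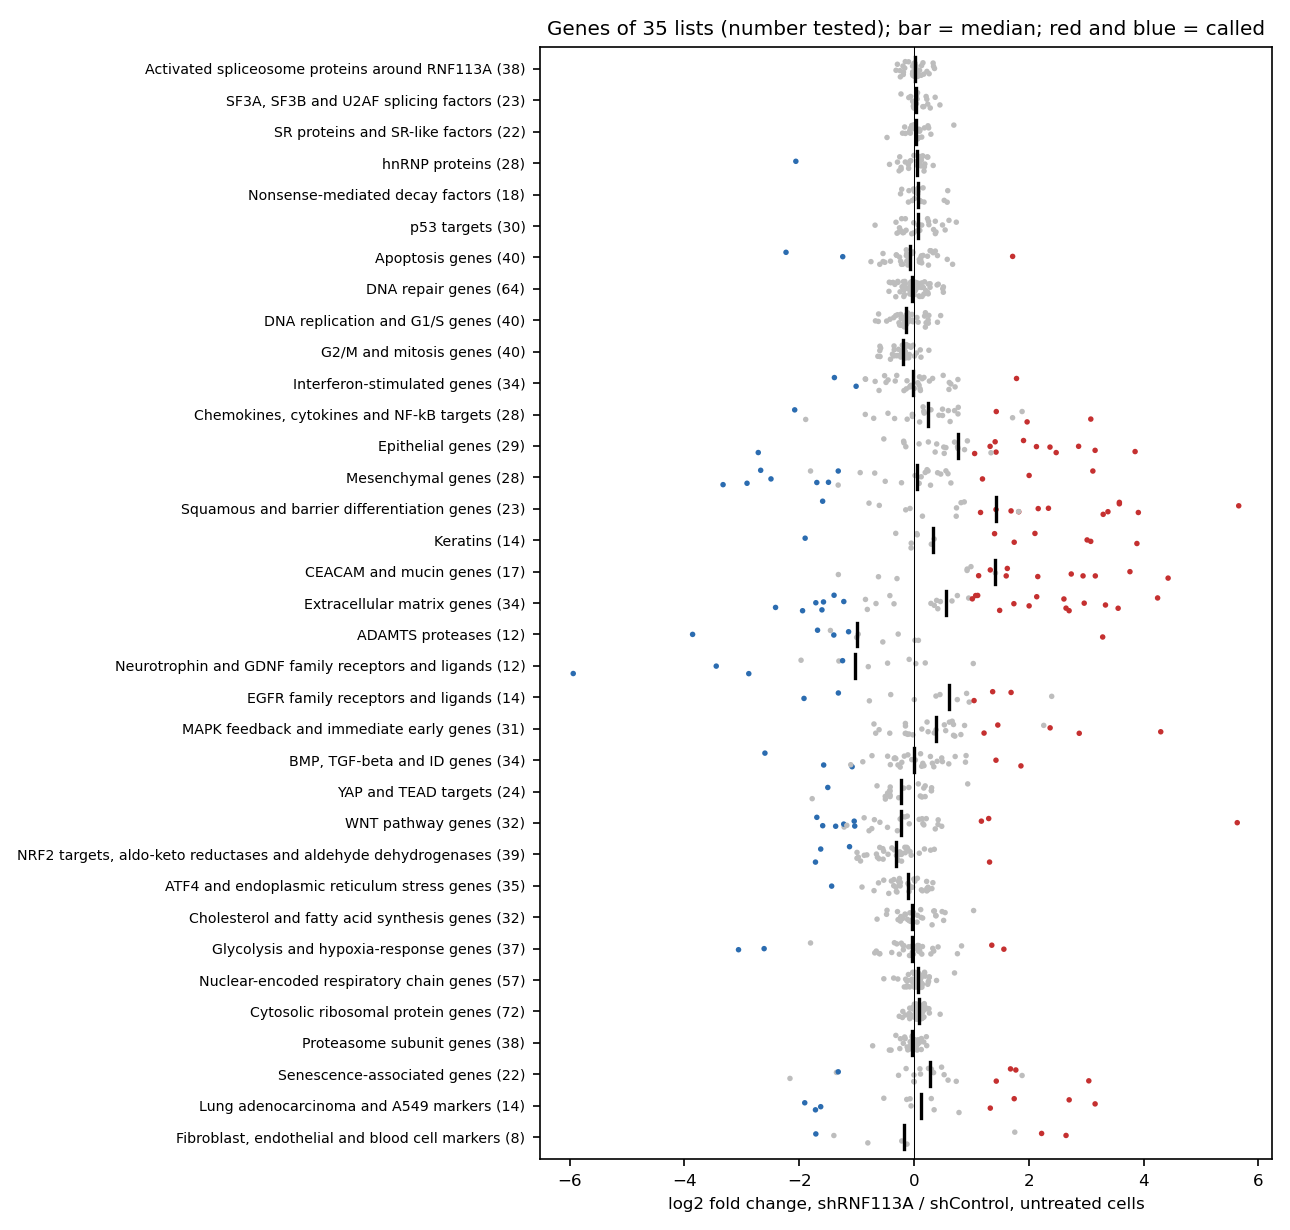
Log2 fold change upon RNF113A depletion (x axis) of the tested genes of each list (rows), with red and blue points for genes that rose or fell at least 2-fold, grey points for the others and a black bar at the list's median. The epithelial, squamous, mucin and matrix lists spread widely, while ribosomal, proteasome and spliceosome genes stay close to 0.

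Splicing was read from 5 categories of events, each with reads of the inclusion and the skipping form in every library. The tables do not name the order of the libraries, so they are given as a, b and c within each group and cannot be matched to replicate numbers, control replicate 2 included. An intron's inclusion level is the length-corrected percentage of reads that retain it, and events were called at an adjusted p under 0.05 and group means at least 20 percentage points apart. Of 3620 tested introns 34, 0.939%, were called, 31 with more and 3 with less retention in depleted cells. Without the limit of 20 points 591 introns, 16.3%, passed the adjusted p, and 580 of them, in 467 genes, were more retained. The direction was common to most introns: 77.3% of those tested had a higher mean level in depleted cells, with a median shift of 1.07 points. Leaving out 1 library gave 20 to 45 called introns, the lowest count without control library b.

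The splice sites of the introns named by the rule, 10 with a rise and that of VAMP1 with a fall, show the junctions concerned. Each line gives the 5′ splice site, with 3 bases of exon and 6 of intron, read on the strand of the gene from GRCh37 (hg19), and capitals mark the first 2 bases of the intron.
SLC25A35: aagGTaagc
ECHDC2: cagGTactg
HMG20B: gagGTgaga
ELMOD3: ccgGTgagc
WDR73: cagGTaccg
CLK1: gggGTatga
MICALL2: ccgGTgcgt
RCCD1: cccGTgagc
C5orf45: aagGTcagt
NME4: aaaGTgtgt
VAMP1: taaGTaagt

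The 3′ splice sites of the same introns follow, with the last 20 bases of the intron and 3 of the exon, and capitals mark the last 2 bases of the intron.
SLC25A35: attgattgattgattgacAGgtc
ECHDC2: actttgttctatctgagcAGctt
HMG20B: gacgcagcccggttctgcAGccg
ELMOD3: cttttttttcttttgtgcAGagc
WDR73: agttcaactctctgtgccAGgtg
CLK1: gatttatttctctcttttAGatg
MICALL2: ctgacgagccatccccacAGagg
RCCD1: tgctccaatccgccccgcAGgtg
C5orf45: atggccatcttctctttcAGgga
NME4: tgacctcttgccttttgaAGgag
VAMP1: ttcccttcgtcctgcccaAGggc

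All of these introns begin with GT and end with AG, as did 98.7% and 99.9% of the 3620 tested introns. HMG20B, which encodes a subunit of a histone deacetylase and demethylase complex, retained intron 3 of 9 (chr19:3573799-3574380, + strand) at 29.99, 24 and 29.8% in control libraries a, b and c and 54.8, 50.9 and 62.6% in depleted libraries. The difference was 28.2 points, with an adjusted p of 1.2e-06. CLK1, a kinase that phosphorylates SR splicing factors, had an intron (chr2:201724470-201725960, − strand) at 29.6, 12.9 and 34.7% in control and 47.1, 54.1 and 55% in depleted cells. Control library b had the lowest level there, and each depleted library exceeded every control. ECHDC2, a mitochondrial hydratase-like protein, retained intron 5 of 9 (chr1:53370763-53372190, − strand) at 20.1, 20.8 and 22.4% and 47.7, 56.2 and 50.7%. MICALL2, a protein that links membrane traffic to actin, retained intron 14 of 16 (chr7:1476493-1477170, − strand) at 40.2, 20.8 and 36.2% and 48.8, 56.2 and 70.4%.

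Others showed the same pattern of separate groups. ELMOD3, a GTPase-activating protein, had intron 2 of 12 (chr2:85582294-85584089, + strand) at 67.6, 64.2 and 66.8% in control and 91.9, 100 and 90.1% in depleted cells. WDR73, a WD-repeat protein, had an intron (chr15:85189317-85189414, − strand) at 38.2, 15.1 and 35.2% and 53.3, 59 and 59.5%. NME4, a mitochondrial nucleoside diphosphate kinase, had one (chr16:448395-448989, + strand) at 40.04, 36.9 and 47.4% and 70.5, 72 and 54.1%. RCCD1 had intron 2 of 8 (chr15:91500131-91500342, + strand) at 42.6, 51.6 and 29.96% and 80.5, 54.7 and 62.4%. The introns of SLC25A35 (chr17:8191751-8192891, − strand), at 68.3, 60.7 and 55.5% and 100, 100 and 88.7%, and C5orf45 (chr5:179264886-179267871, − strand), at 50.3, 47 and 45.5% and 65.7, 78.4 and 71.4%, overlap exons of RANGRF and SQSTM1 on the opposite strand, so their levels are uncertain. The fall named by the rule was in VAMP1, a vesicle fusion protein, whose intron (chr12:6572009-6574055, − strand) was retained at 85.1, 86.2 and 71.4% in control and 59.5, 63 and 54.6% in depleted cells. Introns just above the limit were those of PHPT1 at 20.3 points and ATAT1 at 20.5 points, and those just below it C1orf63 and ATP5G1, both at 19.7 points.

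**Figure D4:**
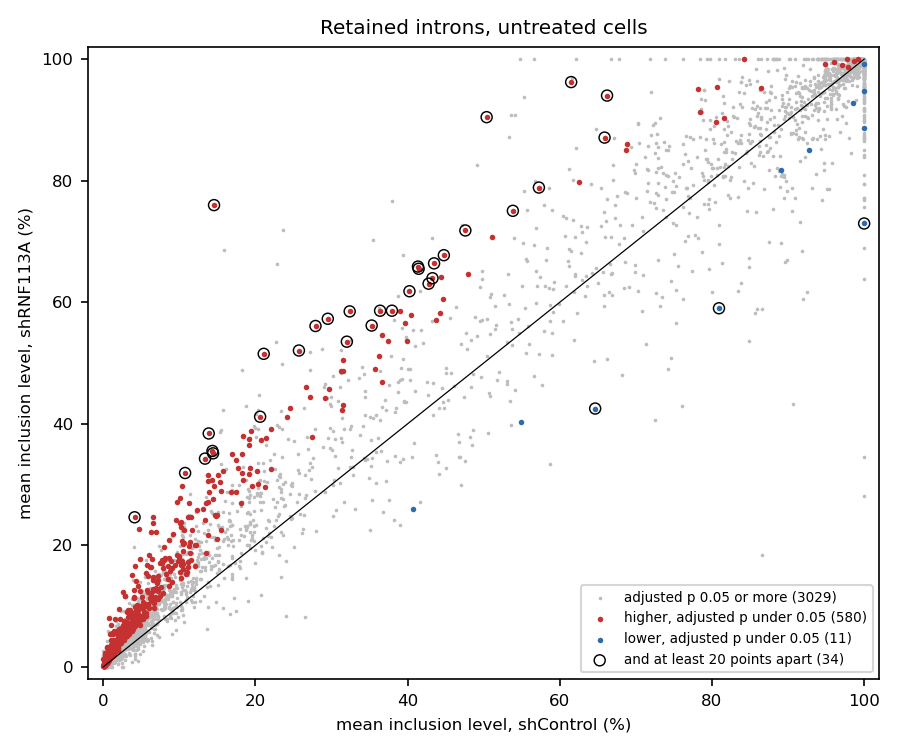
Mean inclusion level of each of 3620 tested introns in RNF113A-depleted cells (y axis, percent) against control cells (x axis, percent), both untreated, each a mean of 3 libraries. Red points are the 580 introns more retained and blue points the 11 less retained at an adjusted p under 0.05, black circles mark the 34 called introns, and most points lie above the line of equal levels.

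Introns of the splicing machinery and of the translation machinery were among those with a smaller rise. In the list of cytosolic ribosomal protein genes 30 of 68 tested introns, in 21 of 39 genes, were more retained at an adjusted p under 0.05, against 16% of all tested introns. SR proteins and related kinases had 7 of 19 such introns, in CLK1, CLK3, CLK4, SRSF5 and SRSF7. SRSF5, an SR protein, retained an intron (chr14:70235969-70237183, + strand) at 9.8, 10.01 and 11.4% in control and 20.2, 21.3 and 20.6% in depleted cells. SRSF7 had an intron (chr2:38975796-38976670, − strand) at 6.06, 4.45 and 5.02% and 7.66, 8.33 and 7.73%. HNRNPH1 and HNRNPA1 were among the hnRNP genes, which had 7 of 20. High shares were not confined to these groups, since the list of NRF2 targets and related enzymes had 6 of 12 and the keratin list 2 of 5. The proteasome list had 8 of 31 and the respiratory chain list 6 of 19. None of 15 tested introns in genes of the activated spliceosome and none of 15 in ATF4 and endoplasmic reticulum stress genes was more retained at that threshold, and of 15 in DNA repair genes 1 was, in PARP1. Genes with many reads per intron can pass the test with smaller shifts, and the part of read depth in these counts was not tested. STAT6, a transcription factor of interleukin signalling that was chosen after its values were seen, retained an intron (chr12:57499383-57499973, − strand) at 8.47, 11.8 and 9.93% in control and 26.2, 28.5 and 28.5% in depleted cells.

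The 580 introns with more retention had a low level in control cells, with a median of 3.28%, which rose to 6.84% in depleted cells. They held more reads than the average, with a median of 280.5 in the library with fewest reads against 112.5 for all tested introns. Their median length was 298.5 bases against 257, and their median GC content 55.1% against 56.5%. The 5′ splice site began with GTAAGT in 10.5% of them and with GTGAGT in 17.4%, against 6.91% and 14.3% of all tested introns, on the strand of the gene. The 31 called introns were longer, with a median of 572 bases. These features are descriptions of tested introns and not of introns in general, since the tables hold annotated retention events. The mRNA of genes with a more retained intron seldom changed: of 458 such genes in the expression test 2 rose and 5 fell 2-fold, 1.53%, against 3.99% of the 2056 genes with any tested intron. None of the 29 genes with a called rise changed 2-fold, while 5 were higher and 0 lower with no fold limit.

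Skipped exons were rarely called. Of 61889 tested events 8 were called, 0.0129%, 7 of them with less and 1 with more inclusion, and 54 passed the adjusted p alone, 0.0873%, 27 in each direction. At an unadjusted p under 0.05 there were 2368 events. The count fell to 0 when depleted library b or c was left out, to 1 without control library c or depleted library a, and was 7 without control library a or b. The called events concerned CTNND1, GFM2, TAPBP and ZRANB2. In CTNND1, which encodes p120-catenin that binds cadherins, 5 overlapping events share exons of the start of the gene. Its 119-base exon (chr11:57556509-57556627) was included at 63.9, 69.6 and 74.1% in control and 45.3, 38.4 and 39.7% in depleted cells. In TAPBP, a chaperone of antigen loading, a 35-base exon (chr6:33271732-33271766) was included at 91.7, 95.4 and 84.7% and 63.3, 64.3 and 56.7%. In GFM2, a mitochondrial recycling factor of ribosomes, a 141-base exon (chr5:74034327-74034467) was included at 88.8, 96.1 and 93.6% and 76.7, 71.5 and 69.9%. In ZRANB2, itself a splicing factor, a 75-base exon (chr1:71531361-71531435) was the one included more, at 46.2, 27.5 and 40.8% and 66.2, 61.7 and 62.1%.

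Below the limit of 20 points some exons moved with many reads, and these were chosen after their values were seen. MYL6, a myosin light chain, included its 45-base exon (chr12:56554410-56554454) at 16.3, 11.4 and 16.2% in control and 32.7, 36.4 and 33% in depleted cells, with an adjusted p of 4.0e-09. SRSF3 included a 456-base exon (chr6:36567598-36568053) at 1.67, 1.97 and 1.41% and 4.86, 4.47 and 3.5%. RAC1, a GTPase of the cytoskeleton, included its 57-base exon (chr7:6438293-6438349) at 1.22, 1.06 and 2.13% and 4.07, 4.03 and 2.95%. CD44, a hyaluronan receptor with many variant exons, included its 90-base exon (chr11:35231512-35231601) at 0.398, 0.25 and 0.428% and 1.6, 1.53 and 1.22%. None of the tested exons of SAT1, NOXA1, RNF8 or SF3B2 passed the test, with adjusted p of 0.708 or more. The 110-base exon of SAT1 (chrX:23802411-23802520) was included at 55.3, 55.6 and 44.1% in control and 56.5, 57.2 and 50.8% in depleted cells. No intron of these genes was among the tested retention events.

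The other categories held 7 called events. Alternative 3′ splice sites gave 4 of 4764 (0.084%), alternative 5′ splice sites 2 of 3261 (0.0613%) and mutually exclusive exons 1 of 13871 (0.00721%). Without the limit of 20 points the adjusted p was passed by 37 (0.777%), 14 (0.429%) and 60 (0.433%) of them. RPS9, a ribosomal protein, used the longer form of an exon (chr19:54710421-54711515) at 54.6, 45.4 and 49.2% in control and 73.6, 69.8 and 76.2% in depleted cells, with an adjusted p of 8.2e-05. PFKL, liver phosphofructokinase, had 2 depleted libraries below the controls and 1 at the same level, 100, 100 and 100% against 64.3, 100 and 53.8%. RAB15, a GTPase of endosomes, had 24.8, 39.8 and 22.7% and 67.2, 73.7 and 42.1% for an alternative 5′ splice site. The other events were in CACNA2D1 (10.2, 4.92 and 0% against 24.3, 24.5 and 59.8%), ST6GALNAC4 (31.6, 18.6 and 61.2% against 61.2, 47.6 and 69.99%), C1orf63 (34.8, 29.7 and 35.4% against 57, 55.4 and 58.9%) and FRMD8 (49.8, 49.3 and 47.6% against 65.2, 69.1 and 75%). Control and depleted libraries overlapped in PFKL and ST6GALNAC4. Leaving out 1 library gave 1 to 4 called events in these categories, so each single-library omission moved the count by more than 1.5 times. The values were 4 without depleted library b, 1 without depleted library a and 2 without any other library.

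Reads in introns were also counted gene by gene, as the reads on the whole span of a protein-coding gene minus those on its exons. Over 11841 genes with both kinds of reads in every untreated library there were 5.09, 4.56 and 4.99 intronic reads per 100 exonic reads in control cells and 6.55, 7.13 and 6.13 in depleted cells. The means were 4.88 ± 0.277 and 6.60 ± 0.504 (SD, n = 3), a difference of 1.72, and the groups did not overlap. The exact permutation test gave a two-sided p of 0.1, the smallest that 3 libraries against 3 can give. Over all 19548 genes of both tables the difference was 1.57. Read pairs that overlapped no annotated exon on the sense strand, a class that includes intronic reads, made up 4.55 to 4.90% in control and 5.40 to 6.42% in depleted cells. Reads outside the span of any protein-coding gene made up 2.97 to 3.04% in control and 3.05 to 3.27% in depleted cells. The part of such reads in the intronic reads was not tested. Control replicate 2 had the lowest share, and without it the difference was 1.56.

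The rise was spread over the genome. Of 9871 genes with at least 10 intronic and 10 exonic reads in every untreated library, 5519 had a changed ratio of intronic to exonic reads at an adjusted p under 0.05 (55.9%), 5481 of them higher (55.5%) and 38 lower. The ratio was higher in 92.5% of the tested genes, with a median log2 change of 0.47, or 1.38-fold, and quartiles of 0.25 and 0.67. In 426 genes it rose at least 2-fold. In 6105 genes, 61.8%, the groups did not overlap. Without control replicate 2 there were 4959 higher and 86 lower genes, and the median was 0.40. A ratio of intronic to exonic reads cannot tell retained introns in mRNA from unspliced nascent RNA.

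The largest rises among genes with at least 50 reads of each kind were in DYNLL1, ADSSL1, MCL1, ADCK5 and LTV1. DYNLL1, a dynein light chain, had 0.711, 0.548 and 0.562 intronic reads per 100 exonic reads in control cells and 2.32, 2.07 and 1.98 in depleted cells, a log2 change of 1.81 (SE 0.16, adjusted p 3.9e-07). MCL1, an anti-apoptotic BCL2 relative whose isoforms are set by splicing, had 1.57, 0.81 and 1.25 and 4.29, 3.54 and 3.63. Its mRNA level was higher in depleted cells, with a log2 fold change of 0.41 (adjusted p 0.00197 in the expression test). The paper reports no evidence of MCL-1 splicing under RNF113A control in parental cells. LTV1, a factor for export of the small ribosomal subunit, had 3.01, 2.59 and 1.78 and 7.86, 5.91 and 7.69. ADSSL1, an enzyme of purine synthesis, had 67, 18.3 and 81.4 and 144, 141 and 154, with control replicate 2 far below the other controls. ADCK5, a kinase-like protein, had 22.3, 14.4 and 13.8 and 55.9, 53.3 and 37.3. Falls named by the rule were smaller, and the largest was −0.90 in GRAMD1B. GRAMD1B, a cholesterol transporter, had 19.5, 12.4 and 18.6 in control and 8.79, 9.93 and 8.03 in depleted cells. ACYP2, DACT2 and OXR1 were others.

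Splicing factor lists are to be read against the 55.5% of all tested genes with a higher ratio. In the list of activated spliceosome proteins 18 of 31 genes had one. In the lists of SR proteins, hnRNP proteins and SF3 or U2AF factors, 12 of 18, 19 of 22 and 15 of 20 tested genes had a higher ratio. The following genes were chosen after their values were seen. SRSF3, which carries a poison exon, had 2.33, 2.49 and 2.09 intronic reads per 100 exonic reads in control and 6.24, 6.39 and 4.8 in depleted cells, a log2 change of 1.33. SRSF6 had 5.73, 6.49 and 5.8 and 12.4, 13 and 11.5, and SRSF5 10.8, 9.84 and 11.3 and 21.5, 20.6 and 20.4. CLK1 had 21.2, 12.1 and 20.4 and 34.2, 35.5 and 33.3. PTBP3, whose mRNA fell, had 1.21, 1.18 and 1.27 and 3.21, 2.81 and 3.36. NTRK3, whose mRNA fell most among the named genes, had 62.7, 65.5 and 63.7 and 68.1, 72.9 and 92, so its intronic and exonic reads fell together, with a log2 change of the ratio of 0.22 that did not pass the test (adjusted p 0.365). The ratio of SF3B2 rose from 1.76, 1.84 and 1.98 to 2.51, 2.62 and 2.35. Ribosomal protein genes had a higher ratio in 63 of 68 and respiratory chain genes in 39 of 50, while matrix genes had one in 5 of 22. The housekeeping gene GAPDH had 0.474, 0.414 and 0.432 and 0.583, 0.659 and 0.554, and ACTB 0.301, 0.313 and 0.32 and 0.354, 0.402 and 0.327, with an adjusted p of 0.135 for ACTB.

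The size of the rise varied with gene structure and level. The genes were split into 4 groups of equal size. From the group with the shortest summed introns to that with the longest, the median log2 change of the ratio was 0.58, 0.52, 0.43 and 0.35, and 67.3, 62.7, 52.2 and 40.0% of genes were higher at an adjusted p under 0.05. From the group with the lowest expression to that with the highest, the median was 0.39, 0.47, 0.48 and 0.51. The share of genes higher at an adjusted p under 0.05 was 36.9% in the lowest group and 70.9% in the highest. Genes with more reads can pass the test with smaller changes, so these shares do not measure the size of the rise. Intron length and expression were not separated. Changes of the mRNA level also varied with intron length: 3.08% of genes with the shortest summed introns fell 2-fold and 8.33% of those with the longest, while 4.42 and 3.23% rose.

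**Figure D5:**
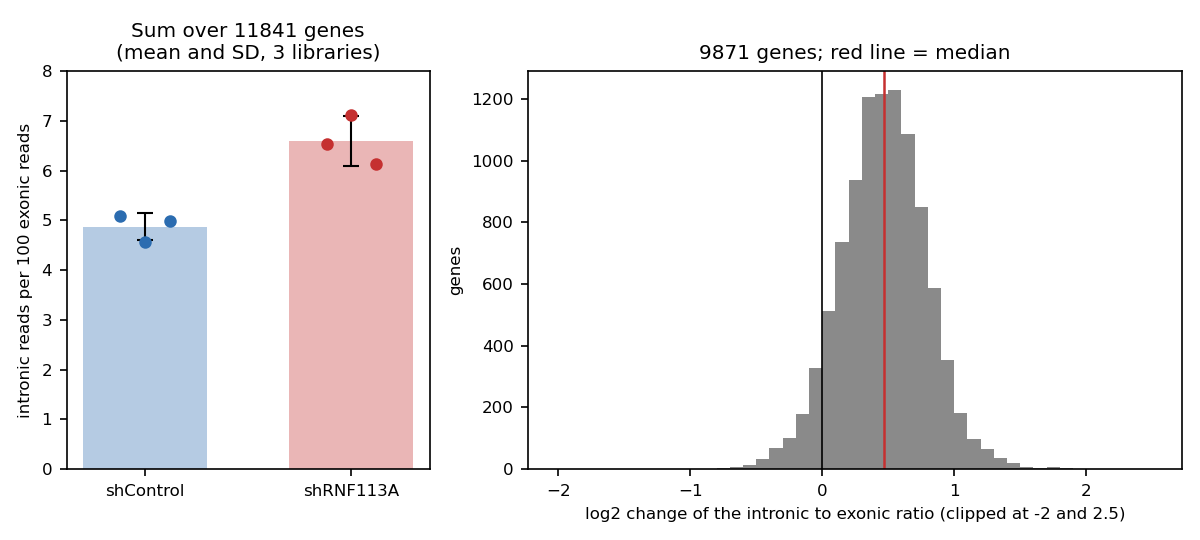
Intronic reads in untreated cells. The left panel shows intronic reads per 100 exonic reads in each library (points) with the group means and SD (n = 3), all 3 depleted libraries above all controls. The right panel is a histogram of the log2 change of the intronic to exonic ratio over 9871 genes (x axis), with values beyond the ends of the axis placed in the end bars and a red line at the median of 0.47, most of it to the right of 0.

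Cisplatin-treated cells carry the same shRNAs under another condition, with their own 3 control and 3 depleted libraries. Of the 1329 genes changed in untreated cells 1266, 95.3%, had the same direction upon depletion with Cisplatin. Of the 1329 genes 794, 59.7%, also passed the test with Cisplatin. The 791 of these with the same direction make up 41.8% of the 1891 genes changed with Cisplatin. The median size of the change was 1.58 on the log2 scale in untreated cells and 1.31 in the same direction with Cisplatin, where genes chosen for a large change in untreated cells are bound to be larger in those cells. A difference between the depletion effects in the 2 conditions was found for 60 of the 1329 genes (4.51%) and for 1.28% of all tested genes at an adjusted p under 0.05 and 2-fold, and since the 1329 were chosen on the untreated effect, which enters this difference, nothing is read from these shares. The depletion effect was smaller with Cisplatin in 49 of the 60 genes and larger in 11, a split that this choice also favours, so nothing is read from it. The sign differed in 26, which include effects close to 0 with Cisplatin, such as 0.01 for BCL2L11. For RNF113A itself the log2 fold change with Cisplatin was −0.14 and did not pass the test (adjusted p 0.233). Its normalized counts there were 1144, 1047 and 997 in control and 908, 855 and 1047 in depleted cells, so the groups overlapped. The log2 fold change with Cisplatin was 4.55 for CEACAM5, 3.17 for EPCAM, −6.38 for NTRK3, −3.13 for FN1 and −1.55 for PTBP3. Control replicate 2 deviated from the mean of the other controls alike in both conditions, with r of 0.75 across 9682 genes, which are not independent replicates. The 2 comparisons are therefore not independent of each other. Replicates 1 and 3 had r of 0.667 and 0.55, measured alike. Replicate 2 enters the mean they are set against, so these values cannot show whether they deviated together.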

How the data were processed

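The authors made stranded TruSeq mRNA libraries from total RNA of A549 cells, sequenced them in paired ends of 76 nt, discarded rRNA, tRNA and mitochondrial reads, trimmed what remained and mapped it to hg19 with STAR 2.5.2b. They deposited one table of raw counts per library, read pairs by gene without normalization, together with HTSeq counts over the exons and over the whole span of protein-coding Gencode genes, and rMATS tables with raw counts of inclusion and skipping reads against Ensembl release 75. Versions come from the submitters' processing notes and the methods. P-values, FDR and differences in inclusion level of the authors' own rMATS comparisons were not used, nor was a merged transcript annotation. On the sense strand 4.55 to 6.42% of read pairs overlapped no annotated exon and were left out of the gene counts.

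Sense-strand counts were filtered (filterByExpr), scaled (TMM) and tested by quasi-likelihood (edgeR 4.0.16, R 4.3.3) in a model of Cisplatin, depletion and their interaction over all 12 libraries. Genes were called at a Benjamini-Hochberg adjusted p under 0.05 and 2-fold. Normalized counts used size factors of DESeq2 1.42.0. The balance of inclusion and skipping reads, and of intronic and exonic reads, was fitted by edgeR with a term for each library. The intronic share was compared with a two-sided exact permutation test. Tables were handled with Python 3.11.15, pandas 2.3.3 and numpy 2.4.6, and splice sites were read from GRCh37 (hg19).

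The members and gene lists were chosen with earlier results of these data known. The rule named the 12 largest rises and falls whose mean reached 10 CPM and whose groups did not overlap, all of them called, at most 2 rises and 2 falls per list with members that define its role, the 10 largest rises and all falls among called introns with at least 50 reads and no overlap, every other called event, the 5 largest rises and falls of the intronic to exonic ratio with at least 50 reads, and genes the study followed. A few genes that the rule or the lists name are not reported here. In simulated data 191 of 200 changed genes were called with 3 false calls. There, 161 of 195 changed introns passed the adjusted p with 2 false, and 199 of 200 changed intronic ratios with 16 false. The shares of missed and false calls in the measured libraries were not tested. Alternatives were other scaling, strand, filters, limits and tests, a replicate block and the omission of each library.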

Additional observations from a re-analysis of the deposited data

Results flagged for a closer look

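For 13 of the genes named in the text the effect of RNF113A depletion differed between untreated and Cisplatin-treated cells, at an adjusted p under 0.05 for the interaction term in edgeR's quasi-likelihood test. The genes, lists and rule were chosen with earlier results of these data known. The values below are the log2 fold change upon depletion in untreated cells, that with Cisplatin, and the second minus the first.

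In 5 genes the effect in untreated cells was much smaller or absent with Cisplatin. BCL2L11, the BH3-only protein BIM, fell in untreated cells (−1.24) and had 0.01 with Cisplatin, a difference of 1.25 (adjusted p 0.00639). ICAM1 had 1.97 and −0.05, a difference of −2.02, at low counts. NKX2-1 had −1.90 and 0.24, a difference of 2.15, also at low counts. FOXF2 had −1.502 and −0.52, a difference of 0.99. ALDH1A3 had 1.32 and 0.55, a difference of −0.76.

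In 5 others the direction was shared and the size was smaller with Cisplatin. FGFBP1 had 2.92 and 2.02, a difference of −0.90. OAS1 had 1.79 and 1.08, a difference of −0.70. SERPINB5 had 5.66 and 2.94, a difference of −2.72, with hardly any reads in untreated controls. PTBP3 had −2.06 and −1.55, a difference of 0.51, and CA12 had −2.61 and −1.97, a difference of 0.64. The effect was larger with Cisplatin for CLDN2, at −2.71 and −3.99, a difference of −1.27, and for NUPR1, at −1.43 and −3.23, a difference of −1.80 (adjusted p 2.6e-04). CDKN1A, which did not pass the test in untreated cells (0.34), had −0.91 with Cisplatin, a difference of −1.25 (adjusted p 0.0134).

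Over all 1329 genes changed in untreated cells, 60 had such a difference of at least 2-fold.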

How the results depend on the processing

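Each result was computed again under 1 changed choice at a time. The 1329 changed genes became 789 with at least 10 reads in every library, 4207 without the fold limit, 1159 with untreated libraries only, 1277 with DESeq2, and between 1087 and 1425 with 1 library left out. RNF113A ranged from −0.35 to −0.28 with 1 library left out and missed the threshold without control replicate 1 (−0.30) or 3 (−0.31) or depleted replicate 1 (−0.28) or 2 (−0.31). Called retained introns numbered 137 with a limit of 0.1, 591 with none and 20 to 45 with 1 library left out. Skipped exons numbered 20, 54 and 0 to 7, and the other events 31, 111 and 1 to 4. The difference in intronic reads per 100 exonic reads was 2.64 as a median over genes, and 1.46 to 1.96 with 1 library left out. Genes with a changed intronic ratio numbered 3703 to 5280 with 1 library left out. DESeq2 gave 93 genes in place of 60 whose effect differed with Cisplatin. With 1 library left out the SF3B2 log2 fold change ranged from −0.1011 to 0.0839. It turned positive with untreated libraries only (0.0035), the replicate block (0.0059), library size scaling (0.0241), no filter (0.0023) and without control replicate 1 (0.0839) or 3 (0.023) or depleted replicate 1 (0.0029) or 2 (0.0073). With no choice changed the SF3B2 value was −0.0004 (SE 0.089), so no direction is read from these signs. Of 83 named genes that were called, 11 lost the call under at least 1 of 13 alternatives, 6 of them without control replicate 2, and 0 changed direction.

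Deviations of equally numbered control and depleted libraries from their group means correlated with r of 0.011, 0.019 and 0.144 across 10217 genes, so the numbers were not taken as pairs. With the replicate block 1382 genes, 4882 intronic ratios and 70 genes with a different effect under Cisplatin were called. Splicing events could not be fitted with the block, since their tables carry no replicate numbers. Precision is limited by 3 libraries a group and, for splicing, by reads per event.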

Other observations

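Genes outside the lists also had different values upon depletion in the 2 conditions, and those given here were chosen after their values were seen. GPC6, a glypican of the cell surface, fell in untreated depleted cells by 1.12 on the log2 scale and had 1.44 with Cisplatin. The value with Cisplatin rests on low counts, 6.68, 15.7 and 20.7 in control and 36.3, 30.4 and 51.1 in depleted cells. MYO1D, an unconventional myosin, rose by 1.63 in untreated cells and by 2.84 with Cisplatin. EFEMP1, a fibulin of the matrix, rose by 2.65 and by 1.19. MMP7, a secreted metalloprotease, had −1.95 and −0.81.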
